A study of Mus musculus with 3 samples.

Results

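The cells described here are progenitor-gate cells of mouse bone marrow that carry RNA of Bhlhe41, Cd7 or Asb2. They were chosen by the summed UMI counts (unique transcript counts) of these genes, and most do not carry all of them. A cell is a member when its raw UMIs of Bhlhe41, Cd7 and Asb2 sum to at least 3, those of Klrd1, Eomes and Ncr1, genes of natural killer (NK) cells, to at most 1, and those of Cd3d, Cd3e and Cd3g, genes of the T cell receptor complex, to at most 1. Members numbered 79 of 716 kept cells in ILCpro_KO and 44 of 1829 in ILCpro_WT, together 123 of 2545 cells of both genotypes and of 3355 kept cells in all.

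The series measured messenger RNA in single cells with 10x Chromium v2 libraries, 1 for each of 3 sorted populations of C57BL/6 bone marrow. ILCpro_KO came from Tcf7EGFPnull/- mice and ILCpro_WT from Tcf7EGFP/+ mice, and both were sorted as Lin- Kit+ 2B4+ a4b7+ Tcf7+. ALP came from Tcf7EGFP/+ mice too, was sorted as Lin- Kit+ and 2B4+ a4b7- with Flt3high IL-7Ra+, and is given as a value beside them. EGFP reports Tcf7, which encodes the transcription factor TCF-1, so the WT mice carry 1 reporter allele as well, and neither the number nor the age of the mice is in the labels. With 1 library for each genotype, genotype and library cannot be told apart and no difference below has a replicate check or a test. Tcf7 itself stood at 121 CPM in KO members and 51.5 CPM in other KO cells, and at 469.6 CPM in WT members and 359.6 CPM in other WT cells, and a Tcf7 UMI was found in 29 of 79 KO members and 24 of 44 WT members. Where the null alleles lack sequence is not in the labels, and 3' tags from outside that stretch check nothing about the genotype.

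Innate lymphoid cells (ILCs) are lymphocytes without rearranged antigen receptors, and they arise in bone marrow through progenitors that turn on TCF-1 early. BHLHE41 is a helix-loop-helix repressor, CD7 is a surface immunoglobulin-family protein found early on T and NK lineage cells in humans, and ASB2 is the substrate receptor of a ubiquitin ligase. Runx3, a transcription factor of ILC and cytotoxic lymphocyte programmes, and Lag3, an inhibitory receptor that binds MHC class II, were proposed as markers of these cells from the same data.

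Members made up 11.0% (exact Clopper-Pearson 95% interval 8.83 to 13.6) of ILCpro_KO cells and 2.41% (1.75 to 3.22) of ILCpro_WT cells. In ALP 2 of 810 cells met the rule, 0.247% (0.0299 to 0.889). The rule uses raw counts, and the median ILCpro_KO member had 3886 UMIs and other ILCpro_KO cells 5546, against 2536.5 in ILCpro_WT members and 2907 in other ILCpro_WT cells. With every cell thinned to 2000 UMIs, the share was 5.29% (3.75 to 7.21) of 700 ILCpro_KO cells and 0.899% (0.480 to 1.53) of 1446 ILCpro_WT cells, and 0 of 761 ALP cells, which allows a share of up to 0.394% by the limit of 3 cells (exact upper bound 0.484%). The thinning left out 16 ILCpro_KO and 383 ILCpro_WT cells of lower depth. The ILCpro_KO share was the higher in each of the 9 other definitions of members or kept cells tried. All intervals cover counting error only.

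**Figure D1:**
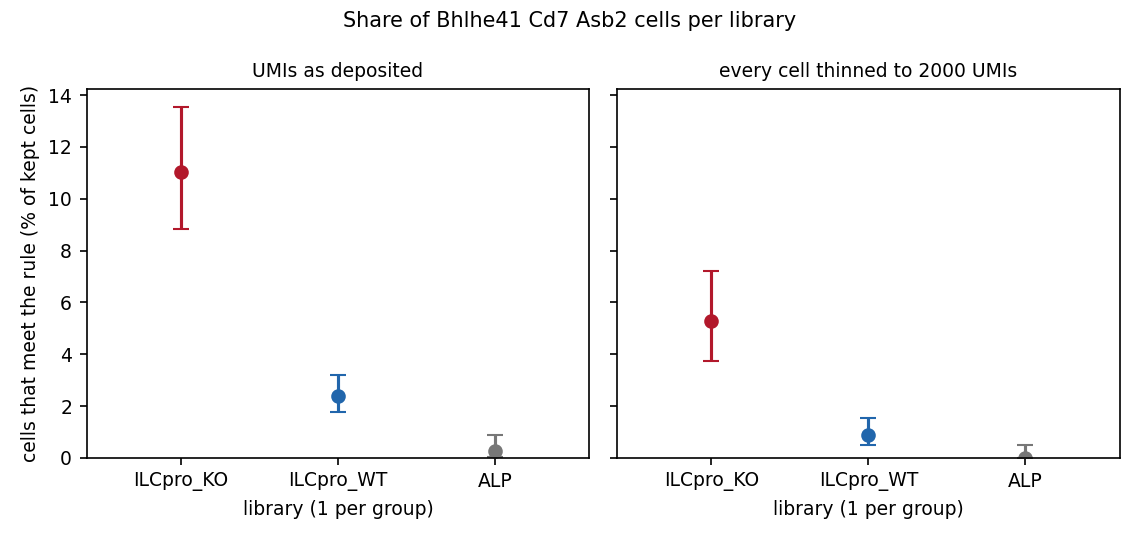
Percent of kept cells that meet the rule (vertical axis) in each library, with UMIs as deposited on the left and every cell thinned to 2000 UMIs on the right. Points are 1 library each and bars exact 95% intervals; ILCpro_KO stood at 11.0% and 5.29%, ILCpro_WT at 2.41% and 0.899% and ALP at 0.247% and 0%.

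The threshold of 3 UMIs cuts through a continuum. Among cells within the NK and T limits, 38 ILCpro_KO and 41 ILCpro_WT cells had a sum of 2 and lay just outside, while 20 ILCpro_KO and 26 ILCpro_WT cells had a sum of 3 and lay just inside. The highest sum was 23 in ILCpro_KO members and 12 in ILCpro_WT members, with medians of 5 and 3. A further 4 ILCpro_KO and 8 ILCpro_WT cells reached the sum and were left out by the NK or T limits.

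The members of both libraries were not made up alike. Bhlhe41 was found in 34 of 79 ILCpro_KO members and 8 of 44 ILCpro_WT members, Cd7 in 66 and 42, and Asb2 in 31 and 5. Cells with Cd7 as the sole gene of the rule were 27 of 79 (34.2%, 23.9 to 45.7) in ILCpro_KO and 32 of 44 (72.7%, 57.2 to 85.04) in ILCpro_WT. All 3 genes together were found in 12 ILCpro_KO members and 1 ILCpro_WT member. The ILCpro_WT members were thus mostly Cd7 cells, and the name of all 3 genes describes the ILCpro_KO members better. Only 12 ILCpro_WT members had a Bhlhe41 or Asb2 UMI, against 52 in ILCpro_KO.

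These uneven parts show in the levels of the rule's genes, which the rule fixes and which are given as a description. Levels are given in CPM, a gene's UMIs summed over the cells of a group and scaled by the group's total UMIs. One UMI equals 2.75 CPM in ILCpro_KO members and 6.71 CPM in ILCpro_WT members, whose 44 cells hold 149056 UMIs, against 363687 in the 79 ILCpro_KO members. In GRCm38, Bhlhe41 (ENSMUSG00000030256) lies on chromosome 6, 145858243 to 145865558, minus strand, Cd7 (ENSMUSG00000025163) on chromosome 11, 121036747 to 121039418, minus strand, and Asb2 (ENSMUSG00000021200) on chromosome 12, 103321142 to 103356001, minus strand. Bhlhe41 had a level of 456 CPM in KO members and 10.9 CPM in other KO cells, and 148 CPM in WT members and 3.36 CPM in other WT cells. Cd7 stood at 764 CPM in KO members and 29.8 CPM in other KO cells, and at 933 CPM in WT members and 43.2 CPM in other WT cells. Asb2 stood at 151 CPM in KO members and 0.497 CPM in other KO cells, and at 80.5 CPM in WT members and 1.18 CPM in other WT cells. In ILCpro_KO members 1 cell held 19 of the 166 Bhlhe41 UMIs, and in ILCpro_WT members 1 cell held 9 of 22. The gene models Gm11775 and Gm15523 overlap Cd7 and Asb2 on the opposite strand.

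Of the proposed markers that the rule did not use, Runx3 was higher in members of both libraries, and Lag3 was higher in ILCpro_KO members and had 0 UMIs in ILCpro_WT members. Runx3 stood at 1424 CPM in KO members and 547 CPM in other KO cells, and at 1369 CPM in WT members and 677 CPM in other WT cells, a ratio of 2.61-fold (2.36 to 2.87) within ILCpro_KO and 2.02-fold (1.75 to 2.33) within ILCpro_WT. Over the alternatives tried its log2 ratio ran from 0.72 to 1.65 in ILCpro_KO and 0.77 to 1.12 in ILCpro_WT, on both sides of 2-fold. With each cell thinned to 1000 UMIs, a Runx3 UMI was found in 62.0% of members and 36.3% of other cells in ILCpro_KO, and in 59.1% and 42.3% in ILCpro_WT. Other cells with at least 20 UMIs of neutrophil and monocyte genes, taken as the background, had one in 8.93% of 112 ILCpro_KO and 14.3% of 21 ILCpro_WT cells. Unthinned, Runx3 was found in 82.3% of ILCpro_KO members and 77.3% of ILCpro_WT members. Lag3 had 45 UMIs in 26 ILCpro_KO members (124 CPM, against 20.4 CPM in other ILCpro_KO cells) and 0 UMIs in the 44 ILCpro_WT members, where 3 UMIs would be 20.1 CPM, against 7.40 CPM in other ILCpro_WT cells. Against that floor of 3 UMIs over the group, Lag3 was 6.15-fold higher in ILCpro_KO members, a value that leaves out the counting error of its 45 UMIs. Thinned to 1000 UMIs it was found in 16.5% (9.06 to 26.5) of ILCpro_KO members, 2.20% of other ILCpro_KO cells and 0 of the 112 background cells.

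**Figure D2:**
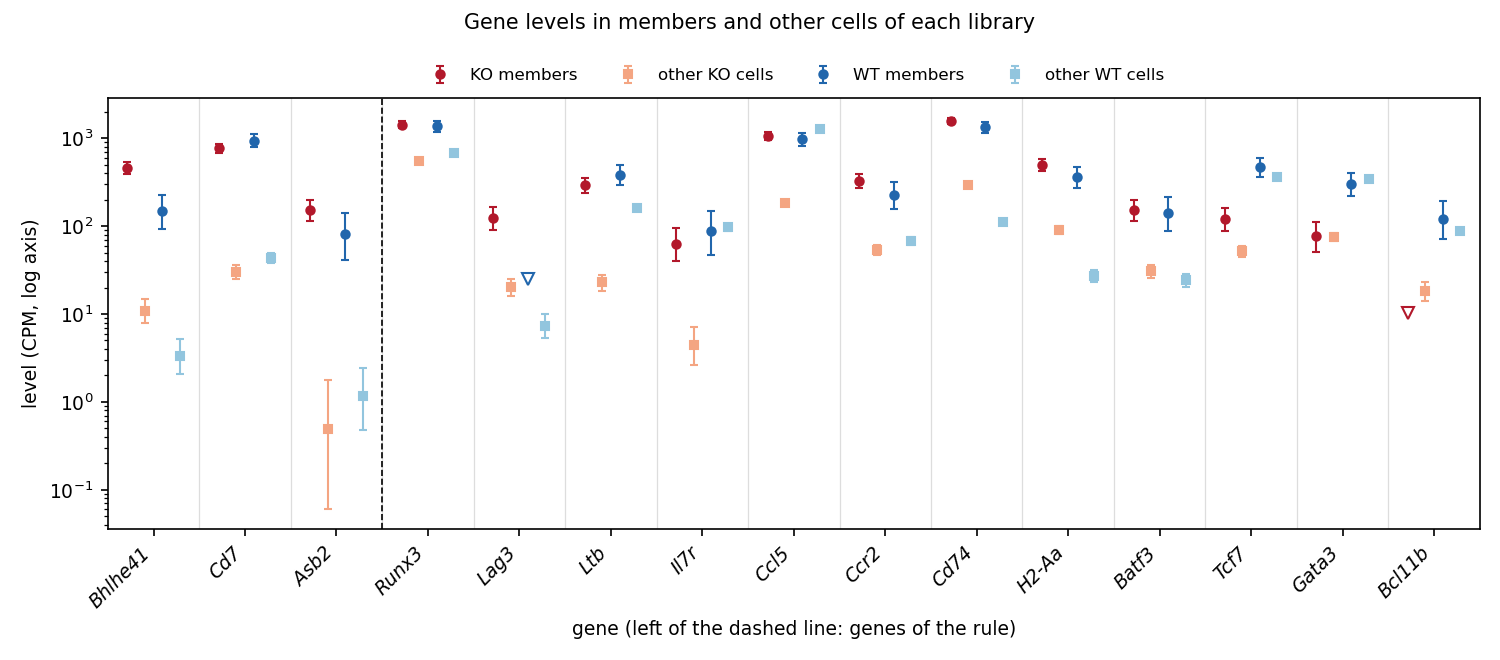
Level of 15 genes (CPM, log axis) in KO members, other KO cells, WT members and other WT cells, with exact 95% Poisson intervals; open triangles mark the upper limit where 0 UMIs were found. Genes left of the dashed line belong to the rule. Members of both libraries lie above their other cells for Cd74, H2-Aa, Batf3 and Ccr2, and Il7r and Ccl5 do so in KO.

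Members against the other cells of their own library ask what goes with the rule's genes inside a library. Genes that reached 20 CPM in either group were counted, with 10 CPM added to both sides of a ratio and the 9 genes of the rule left out. In ILCpro_KO 258 of 6240 genes (4.13%) were at least 2-fold higher in members and 190 (3.04%) at least 2-fold lower. In ILCpro_WT the counts were 331 of 6458 (5.13%) and 320 (4.96%), where the minimum of 20 CPM is about 3 UMIs in members. Over the 5632 genes counted in both libraries, 76 were higher in both, 37.1% of the 205 higher ones in ILCpro_KO and 40.4% of the 188 in ILCpro_WT. Lower in both were 45, which is 32.1% of 140 in ILCpro_KO and 15.2% of 296 in ILCpro_WT. The median log2 ratio over all genes was 0.01 in ILCpro_KO and 0.07 in ILCpro_WT.

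The 4 genes highest in members of both libraries, ranked by the smaller of the ratios, were those of MHC class II, the molecules that present peptides to helper T cells. Of 9 listed class II genes that reached the minimum, 6 were at least 2-fold higher in ILCpro_KO members (median log2 ratio 1.23) and 6 in ILCpro_WT members (1.26), and none was lower. The gene of the invariant chain, Cd74, stood at 1573 CPM in KO members and 291 CPM in other KO cells, and at 1328 CPM in WT members and 110.0 CPM in other WT cells. H2-Aa, an alpha chain, stood at 495 CPM in KO members and 90.8 CPM in other KO cells, and at 362 CPM in WT members and 27.1 CPM in other WT cells, or 5.45-fold (4.53 to 6.53) and 13.4-fold (9.64 to 18.3) higher. The beta chain genes were also higher, H2-Ab1 by 5.66-fold (4.73 to 6.75) in ILCpro_KO and 6.55-fold (4.63 to 9.06) in ILCpro_WT, and H2-Eb1 by 7.31-fold (5.72 to 9.30) and 9.26-fold (5.80 to 14.3). The gene of the transactivator of class II promoters, Ciita, had 5 UMIs in ILCpro_KO members and 1 in ILCpro_WT members. A Cd74 UMI was found after thinning to 1000 UMIs in 44.3% (33.1 to 55.9) of ILCpro_KO members, 10.5% of other ILCpro_KO cells and 3.57% of background cells, and in 36.4% (22.4 to 52.2), 3.54% and 4.76% in ILCpro_WT. Its unthinned shares were 58.2% of ILCpro_KO members and 43.2% of ILCpro_WT members.

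Class II promoters share a module whose Y box, CTGATTGG, is bound by the factor NF-Y. The stretches below are printed because these chain genes led the genes shared by both libraries. They run from 60 bases before the motif to the annotated gene start, 5′ to 3′ on the strand of the gene, from RefSeq promoters of GRCm38.p6, with the Y box in capitals.
H2-Aa (chr17:34287824-34287934, minus strand): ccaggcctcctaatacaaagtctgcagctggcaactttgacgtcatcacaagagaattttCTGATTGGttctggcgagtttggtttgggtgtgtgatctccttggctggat
H2-Eb1 (chr17:34305745-34305866, plus strand): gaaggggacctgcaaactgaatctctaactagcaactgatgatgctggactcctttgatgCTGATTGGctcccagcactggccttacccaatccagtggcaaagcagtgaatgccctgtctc
Searched on both strands, CTGATTGG was found in 3 of the 7 listed class II genes with a promoter entry and in 1346 of 32851 promoters of the same 300 bases (4.10%).

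Other genes higher in both libraries came from several programmes. Batf3, a factor of conventional dendritic cells (DCs) that some lymphocytes also use, stood at 151 CPM in KO members and 30.6 CPM in other KO cells, and at 141 CPM in WT members and 24.2 CPM in other WT cells. Ccr2, a chemokine receptor of monocytes and of ILC progenitors leaving the marrow, stood at 327 CPM in KO members and 54.0 CPM in other KO cells, and at 228 CPM in WT members and 67.8 CPM in other WT cells. Spry2, a feedback inhibitor of growth factor signalling, was 7.20-fold (5.26 to 9.80) higher in ILCpro_KO members and 4.65-fold (2.73 to 7.5) higher in ILCpro_WT members. Serpina3g, a serine protease inhibitor of lymphocytes, was 5.22-fold (3.37 to 7.95) and 5.52-fold (3.17 to 9.08) higher (a log2 ratio of 0.096 in ILCpro_WT with NK and T limits of 0), Siglecg, an inhibitory sialic acid receptor, 4.67-fold (3.16 to 6.80) and 5.88-fold (3.10 to 10.4), and Cldnd1, a claudin-like membrane protein, 3.52-fold (2.93 to 4.21) and 3.24-fold (2.33 to 4.41). Tyrobp, the signalling adaptor DAP12, stood at 2092 CPM in KO members and 830.3 CPM in other KO cells, and at 1966 CPM in WT members and 691 CPM in other WT cells.

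Of 5 genes of group 3 ILCs (ILC3) and lymphoid tissue inducer (LTi) cells that reached the minimum, 4 were at least 2-fold higher in ILCpro_KO members (Ltb, Cxcr5, Ccr6 and Nrp1, median log2 ratio 1.80) and 3 (Ccr6, Nrp1 and Ltb) in ILCpro_WT members (1.19). Ltb, a membrane cytokine that builds lymphoid tissue, stood at 291 CPM in KO members and 22.9 CPM in other KO cells, and at 382 CPM in WT members and 162 CPM in other WT cells. Ccr6, a chemokine receptor of LTi cells, had 10 UMIs in 7 ILCpro_KO members (27.5 CPM, against 0.746 in other cells) and 4 UMIs in 3 ILCpro_WT members (26.8 CPM, against 0.673). The effector genes Il17a, Il22 and Il23r had 0 UMIs in members of both libraries, and also in other ILCpro_KO cells. In other ILCpro_WT cells Il17a had 0 UMIs, and Il22 and Il23r each had no more than 3. These zeros thus do not set members apart. A level of 0 UMIs here allows up to 8.25 CPM in ILCpro_KO members and 20.1 CPM in ILCpro_WT members.

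Genes of neutrophil, monocyte, mast cell and basophil granules were lower in members. Of 12 neutrophil and monocyte genes that reached the minimum in ILCpro_KO, 12 were at least 2-fold lower (median -3.40), and in ILCpro_WT 6 of 6 (-1.90). Elane, neutrophil elastase, stood at 22.0 CPM in KO members and 734 CPM in other KO cells, and had 0 UMIs in WT members against 53.1 CPM in other WT cells. Mpo, myeloperoxidase, stood at 13.7 CPM in KO members and 701 CPM in other KO cells, and at 20.1 CPM in WT members and 90.8 CPM in other WT cells. Mcpt8, a basophil protease, stood at 11.0 CPM in KO members and 381 CPM in other KO cells, and at 6.71 CPM in WT members and 121 CPM in other WT cells. Stmn1, a microtubule regulator of dividing cells, stood at 517 CPM in KO members and 1239 CPM in other KO cells, and at 423 CPM in WT members and 977 CPM in other WT cells. Cells with at least 5 UMIs of other-lineage genes were 10.1% of members and 46.8% of other cells in ILCpro_KO, and 2.27% and 8.18% in ILCpro_WT. Without such cells the neutrophil and monocyte median was -0.27 in ILCpro_KO and -0.45 in ILCpro_WT. The log2 ratios of Elane, Lyz2, Prss34 and Ap3s1 in ILCpro_KO were then 0.58, 0.049, 0.050 and 0.20, that of Mcpt8 was -0.63, and in ILCpro_WT those of Elane and Mpo were -0.21 and -0.37. Cells with at least 5 UMIs of G2/M genes were 13.9% of members and 36.4% of other cells in ILCpro_KO, and 9.09% and 16.2% in ILCpro_WT. Of the G2/M genes, 4 of 14 were at least 2-fold lower in ILCpro_KO members (median -0.81, and -0.19 against other cells of like depth) and 5 of 13 in ILCpro_WT members (-0.96).

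**Figure D3:**
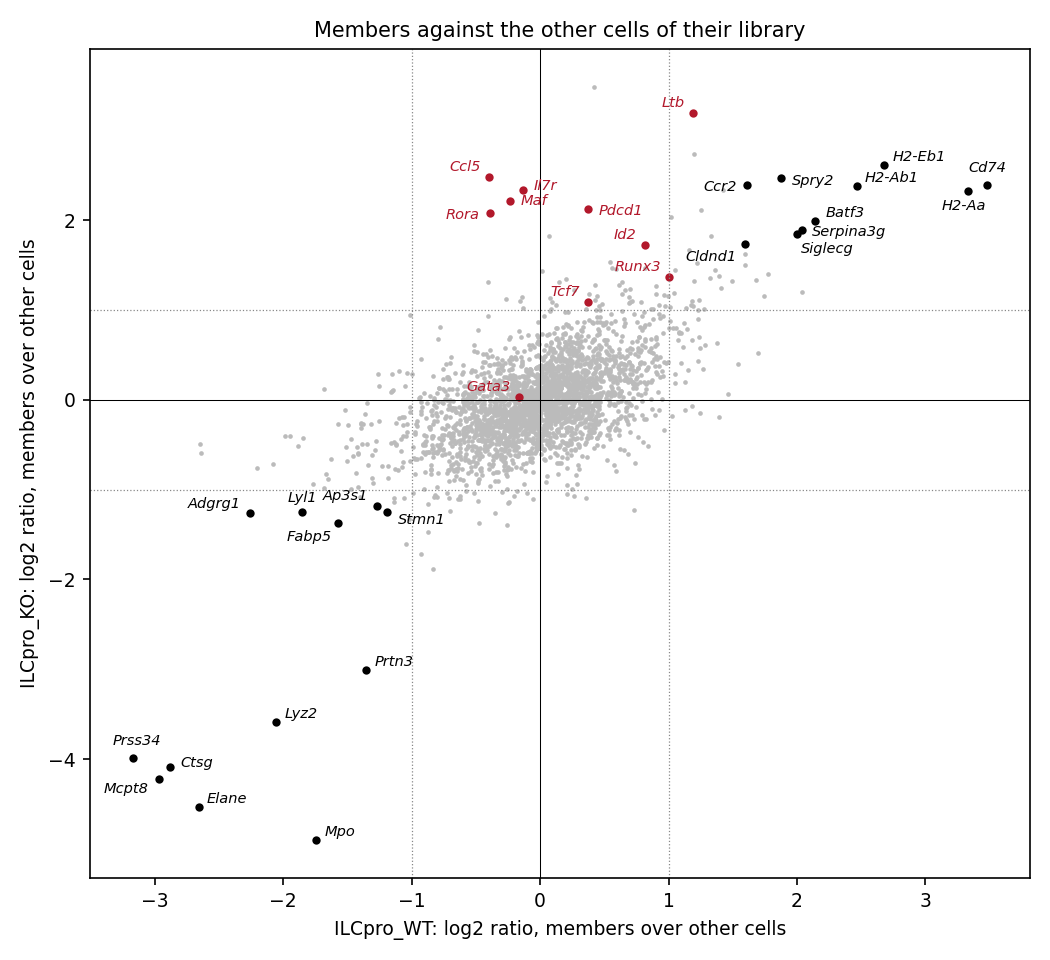
Log2 ratio of members over the other cells of the same library, ILCpro_KO on the vertical and ILCpro_WT on the horizontal axis, for 2740 genes whose higher group reached 50 CPM in each library; dotted lines mark 2-fold. Black points are the genes named as highest or lowest in both libraries, such as Cd74 and Batf3 at the upper right and Elane at the lower left, and red points are ILC genes, of which Ltb is high in both and Ccl5, Il7r, Maf and Rora are high in ILCpro_KO and near or below 0 in ILCpro_WT.

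Within ILCpro_KO, genes of ILC precursors were mostly higher in members than in the other cells. Of those other cells, 46.8% had at least 5 UMIs of other-lineage genes, against 8.18% in ILCpro_WT. Their part in the ratios was not tested. Of 13 listed surface and effector genes of ILC precursors that reached the minimum, 10 were at least 2-fold higher in ILCpro_KO members and none lower. Their median log2 ratio was 1.34, and 0.97 to 1.66 over the alternatives tried. In ILCpro_WT members 3 of 15 were at least 2-fold higher (median 0.20, of either sign over the alternatives tried). Il7r, the interleukin 7 receptor chain on which ILCs depend, stood at 63.2 CPM in KO members and 4.48 CPM in other KO cells, and at 87.2 CPM in WT members and 96.4 CPM in other WT cells. Ccl5, a chemokine of cytotoxic lymphocytes and ILC precursors, stood at 1059 CPM in KO members and 182 CPM in other KO cells, and at 966 CPM in WT members and 1275 CPM in other WT cells. Pdcd1, the receptor PD-1 that marks ILC precursors, stood at 115 CPM in KO members and 18.7 CPM in other KO cells, and at 161 CPM in WT members and 122 CPM in other WT cells. The ratios of members over other cells were 14.1-fold (7.29 to 27.8), 5.82-fold (5.13 to 6.6) and 6.19-fold (4.14 to 9.15) in ILCpro_KO. In ILCpro_WT they were 0.905-fold (0.479 to 1.56), 0.758-fold (0.638 to 0.894) and 1.32-fold (0.842 to 1.98), with Ccl5 lower in members than in other ILCpro_WT cells and the intervals of Il7r and Pdcd1 around 1. The difference between the libraries in these ratios was not tested. Thinned to 1000 UMIs, Il7r was found in 5 of 79 ILCpro_KO members (6.33%), 0.471% of other ILCpro_KO cells and 0 of 112 background cells.

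The ILCpro_KO members held 8.30% of the UMIs of their library, 1265 of 7597 UMIs (16.7%, 15.8 to 17.5) of the ILC transcription factors and 1125 of 5782 UMIs (19.5%, 18.4 to 20.5) of the ILC precursor surface and effector genes. The rest of the library includes the other-lineage cells named above, and Id2 alone made up a large part of the factor UMIs. The parts differed between genes, with 44 of 251 UMIs (17.5%, 13.0 to 22.8) of Tcf7. They held 23 of 41 UMIs (56.1%, 39.7 to 71.5) of Il7r and 106 of 198 UMIs (53.5%, 46.3 to 60.6) of Ltb. Of Ccl5 they held 385 of 1116 UMIs (34.5%, 31.7 to 37.4), and of Rora, a nuclear receptor of ILC2 and ILC precursors, 67 of 211 UMIs (31.8%, 25.5 to 38.5). In ILCpro_WT, whose members held 2.45% of the UMIs, they held 715 of 26318 UMIs (2.72%, 2.52 to 2.92) of the factors, 472 of 17841 UMIs (2.65%, 2.42 to 2.89) of the precursor genes, 13 of 586 UMIs (2.22%, 1.19 to 3.76) of Il7r, 57 of 1020 UMIs (5.59%, 4.26 to 7.18) of Ltb and 144 of 7723 UMIs (1.86%, 1.57 to 2.19) of Ccl5.

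Among ILC transcription factors, 6 of 14 were at least 2-fold higher in ILCpro_KO members than in other ILCpro_KO cells (median 0.85, and 0.28 without other-lineage cells), and 0 of 15 in ILCpro_WT members (0.13). Maf, a regulator of ILC3 and helper T cells, stood at 135 CPM in KO members and 21.1 CPM in other KO cells, and at 73.8 CPM in WT members and 88.6 CPM in other WT cells. Rora stood at 184 CPM in KO members and 35.8 CPM in other KO cells, and at 342 CPM in WT members and 452 CPM in other WT cells. Id2, which restrains E proteins to permit ILC fate, stood at 1875 CPM in KO members and 562 CPM in other KO cells, and at 1234 CPM in WT members and 698 CPM in other WT cells. All 17 listed factors summed to 3478 CPM in KO members and 1575 CPM in other KO cells, so Id2 alone carried a large part of these sums. Tox, an early ILC regulator, stood at 291 CPM in KO members and 137 CPM in other KO cells, and at 282 CPM in WT members and 203 CPM in other WT cells. Gata3, required by ILC precursors, was not among them and stood at 77.0 CPM in KO members and 75.1 CPM in other KO cells, and at 302 CPM in WT members and 340.1 CPM in other WT cells.

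ILCpro_KO members against ILCpro_WT members ask how cells picked by the same rule differ between the genotypes. Over 6671 genes, 634 (9.5%) were at least 2-fold higher in ILCpro_KO members and 382 (5.73%) at least 2-fold lower. Other ILCpro_KO cells against other ILCpro_WT cells gave 122 of 5848 genes (2.09%) higher and 80 (1.37%) lower. The first pair of shares comes from far fewer UMIs, so the pairs are not a measure of which cells differ more. The median log2 ratio over all genes was 0.06 for members and 0.12 for other cells.

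A group of early ILC factors was lower in ILCpro_KO members than in ILCpro_WT members, as it was in the other cells. Of 15 ILC transcription factors, 8 were at least 2-fold lower and 0 higher in ILCpro_KO members (median -1.03), against 10 of 14 lower in other ILCpro_KO cells (-1.85). Both counts of lower factors include Tcf7, the gene altered in these mice, whose direction is no separate finding. Bcl11b, a factor of T cells and ILC2, had 0 UMIs in ILCpro_KO members and 18 in 6 ILCpro_WT members (121 CPM). Against the floor of 3 UMIs it was 14.6-fold lower. With members picked after thinning to 2000 UMIs, when 13 ILCpro_WT members were left, its log2 ratio was 0. Tox2, a relative of Tox, was 7.32-fold (3.72 to 15.5) lower, at 33.0 CPM in ILCpro_KO members and 242 CPM in ILCpro_WT members. Ikzf2, the factor Helios, was 4.10-fold (2.82 to 6.02) lower, Tcf7 3.88-fold (2.63 to 5.80) lower, Gata3 3.92-fold (2.39 to 6.53) lower, and Zbtb16, whose product PLZF marks committed ILC precursors, 3.37-fold (2.03 to 5.63) lower. Over the alternatives tried the log2 ratio between the members of both genotypes ran from -2.0 to -1.34 for Tcf7 and -1.96 to -0.98 for Gata3. The median of the factors ran from -1.66 to -0.046, the weakest value coming with the thinned members.

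Genes of a passing progenitor stage were lower too. Of 6 listed transitional progenitor genes 5 were at least 2-fold lower in ILCpro_KO members (median -2.17), against 6 of 6 in other ILCpro_KO cells (-2.63); this list was drawn from earlier results of these libraries and its direction is no separate finding. Fgf3, a growth factor, had 0 UMIs in ILCpro_KO members and 8 in ILCpro_WT members, and Bcas1 stood at 13.7 CPM in ILCpro_KO members and 114 CPM in ILCpro_WT members. Igfbp4, a binding protein of insulin-like growth factors, was 4.27-fold (2.72 to 6.81) lower.

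A further set of ILC genes stood near the ILCpro_WT level in ILCpro_KO members, while it was far lower in the other ILCpro_KO cells. The other cells were not made up alike. Cells with at least 5 UMIs of other-lineage genes were 46.8% of them in ILCpro_KO and 8.18% in ILCpro_WT, against 10.1% and 2.27% of members. The ratios among other cells include them, and their part in the contrast was not tested. The ILCpro_KO over ILCpro_WT ratio of Ltb was 0.762-fold (0.547 to 1.07) among members and 0.141-fold (0.113 to 0.175) among other cells. That of Il7r was 0.725-fold (0.352 to 1.56) among members and 0.0465-fold (0.0273 to 0.0741) among other cells. For Ccl5 the ratios were 1.10-fold (0.903 to 1.34) and 0.143-fold (0.132 to 0.154), for Maf 1.83-fold (0.937 to 3.89) and 0.239-fold (0.187 to 0.300), for Pdcd1 0.717-fold (0.424 to 1.24) and 0.153-fold (0.119 to 0.195), and for Rora 0.538-fold (0.368 to 0.791) and 0.0793-fold (0.0666 to 0.0938). Of the 27 ILC factors and ILC precursor genes that reached 50 CPM in any group, the ratio was higher among members than among other cells for 21. The same share over all genes was not counted, so this count describes the listed genes only. Apart from that of Rora, the intervals of these 6 ratios among members include 1 and most are wide, so that equal levels are not shown. Over the alternatives the log2 ratio among members ran from -1.0 to 1.15 for Il7r, -0.30 to 1.27 for Maf, -1.66 to 0.26 for Rora and -0.67 to -0.03 for Ltb, and so took either sign for the first 3.

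**Figure D4:**
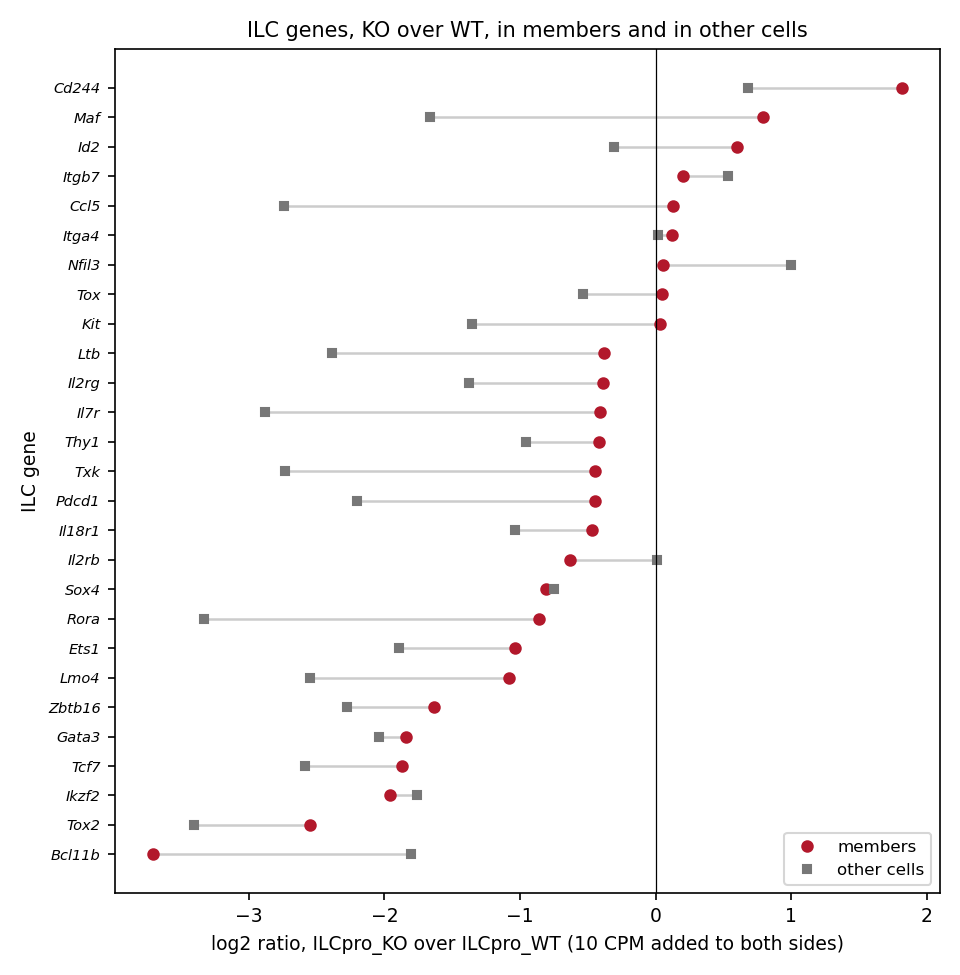
Log2 ratio of ILCpro_KO over ILCpro_WT (horizontal axis, 10 CPM added to both sides) for 27 ILC genes, with red circles for members and grey squares for other cells. Il7r, Ltb, Rora and Ccl5 lie much nearer 0 in members than in other cells, whereas Tcf7, Gata3, Tox2, Ikzf2 and Bcl11b lie near or below -1.8 in members. The other cells include cells with other-lineage RNA, 46.8% of them in ILCpro_KO and 8.18% in ILCpro_WT.

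In the other direction, the highest ratios after Lag3 mostly rest on very few UMIs in ILCpro_WT members. Epsti1, an interferon-induced gene, had 31 UMIs in ILCpro_KO members and 0 in ILCpro_WT members, 4.24-fold higher against the floor of 3 UMIs. Ctsh, a lysosomal protease, was 8.06-fold (2.63 to 40.2) higher, at 162 CPM in ILCpro_KO members and 20.1 CPM in ILCpro_WT members, and 3.92-fold (3.25 to 4.76) higher in the other cells. Ctss, a protease that trims the class II invariant chain, was 5.25-fold (2.13 to 16.7) higher, at 176 and 33.5 CPM. Irf5, an interferon regulatory factor, had 35 UMIs in ILCpro_KO members and 2 in ILCpro_WT members, 7.17-fold (1.84 to 61.6). Cd244, the 2B4 receptor used in the sort, stood at 214 CPM in ILCpro_KO members and 53.7 CPM in ILCpro_WT members, 4.0-fold (1.93 to 9.58). Of the S phase genes 5 of 15 were at least 2-fold higher in ILCpro_KO members (median 0.84), and of the G2/M genes 4 of 12 (0.78). The same medians among other cells were 0.74 and 0.66. With Bhlhe41 or Asb2 asked of a member, the G2/M median between members was -0.46 and the log2 ratio of Ctsh was 0.46, and with a minimum of 2 UMIs that of Irf5 was 0.79.

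The members were also uneven inside each library, and class II RNA divided them. Cells with at least 5 UMIs over Cd74, H2-Eb1, H2-Ab1 and H2-Aa, a limit set after these values were seen, were 31 of 79 members (39.2%, 28.4 to 50.9) and 61 of 637 other cells (9.58%) in ILCpro_KO. In ILCpro_WT they were 13 of 44 members (29.5%, 16.8 to 45.2) and 49 of 1785 other cells (2.75%). The highest count was 95 UMIs in an ILCpro_KO member and 53 in an ILCpro_WT member, and 26 and 23 members had none. Members under the limit of 5 UMIs are called without class II RNA below, and 22 ILCpro_KO and 8 ILCpro_WT members among them had 1 to 4 UMIs.

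Among ILCpro_KO members, class II RNA and Bhlhe41 were counted together cell by cell. Class II cells were 7 of the 34 ILCpro_KO members with Bhlhe41 and 24 of the 45 without it, and 1 of 8 and 12 of 36 in ILCpro_WT. Among other ILCpro_KO cells they were 3 of 32 with Bhlhe41 and 58 of 605 without it. The rule makes every member without Bhlhe41 carry Cd7 or Asb2, so these groups also differ in Cd7, and no test was made. In ILCpro_KO Bhlhe41 stood at 115 CPM in members with class II RNA and 648 CPM in the other members. Bhlhe41 is a gene of the rule, so these levels are given as a description only. Runx3 stood at 727 CPM in ILCpro_KO members with class II RNA and 1815 CPM in those without, and Tcf7 at 53.6 and 159 CPM. Cst3, a protease inhibitor abundant in DCs, stood at 2489 CPM with class II RNA and 425 CPM without, and Irf8, a DC and monocyte regulator, at 1708 and 502 CPM. In ILCpro_WT, Irf8 stood at 659.6 CPM in 13 members with class II RNA and 161 CPM in 31 without, and Runx3 at 1123 and 1517 CPM. Ltb stood at 322 CPM in ILCpro_KO members with class II RNA and 275 CPM in those without.

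**Figure D5:**
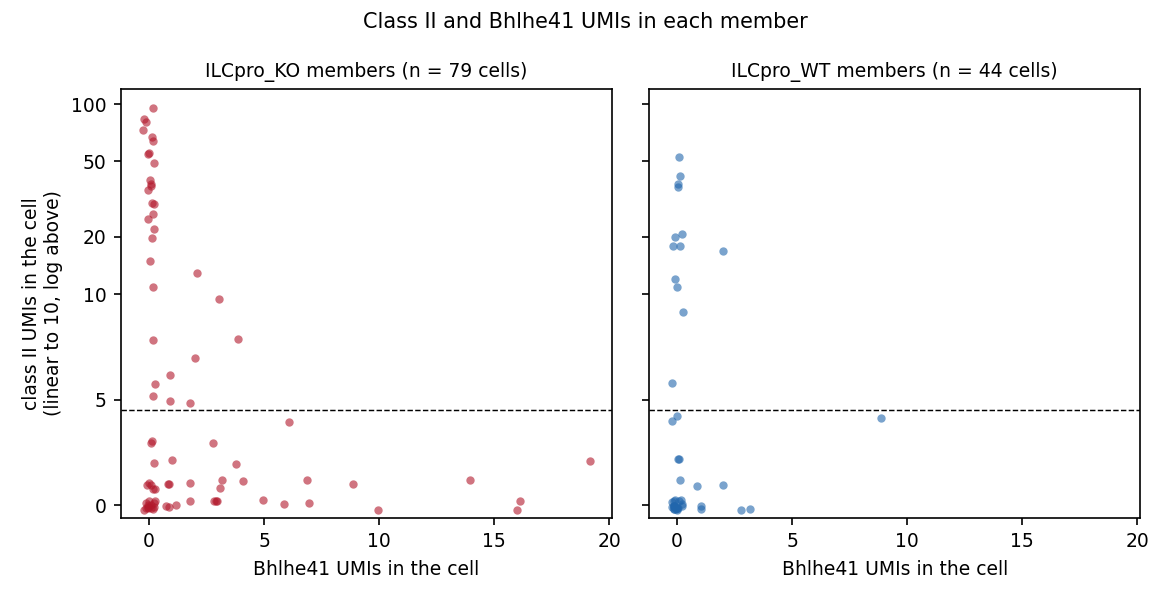
Class II UMIs (Cd74, H2-Eb1, H2-Ab1 and H2-Aa summed; linear up to 10 and logarithmic above) against Bhlhe41 UMIs in each of 79 ILCpro_KO and 44 ILCpro_WT members; points are shifted slightly at random so that they can be told apart. The dashed line marks the limit of 5 class II UMIs. The members with most class II RNA, up to 95 UMIs, lie at 0 Bhlhe41 UMIs, and those with most Bhlhe41 lie below the line. Members at 0 Bhlhe41 UMIs met the rule through Cd7 or Asb2.

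Members with class II RNA were set beside the class II cells that were no members. In ILCpro_KO, members with class II RNA had 322 CPM of Ltb and 819 of Ccl5, against 68.4 and 38.7 CPM in the 61 such cells of ILCpro_KO. Il7r had 7 UMIs in the 31 members with class II RNA and 0 in those 61 cells. Cst3, in contrast, stood at 2489 CPM in the members and 3219 CPM in the 61 cells. In ILCpro_WT, members with class II RNA over the 49 other class II cells gave 2.08-fold (1.26 to 3.38) for Ltb, 0.982-fold (0.575 to 1.62) for Ccl5 and 0.750-fold (0.181 to 2.35) for Il7r, the last pair with intervals around 1, against 21.2-fold (11.9 to 41.1) for Ccl5 in ILCpro_KO. Cst3 and Irf8 were lower in these ILCpro_WT members, at 0.320-fold (0.25 to 0.405) and 0.441-fold (0.303 to 0.625). Of the defining genes of conventional DCs, Zbtb46 and Xcr1 had 0 UMIs in members of both libraries, and Clec9a and Itgax had 1 UMI each in ILCpro_KO members and 0 in ILCpro_WT members. Siglech, which defines plasmacytoid DCs, had 1 and 0 UMIs. Xcr1 had 0 UMIs in other ILCpro_KO cells too. Zbtb46 stood at 0.151 and 0.0418 times the members' floor of 3 UMIs in other ILCpro_KO and ILCpro_WT cells. In other ILCpro_WT cells Clec9a stood at 0.0585 times that floor, and Itgax and Siglech each had no more than 3 UMIs. The zeros of Zbtb46 and Xcr1, and those of Clec9a, Itgax and Siglech in ILCpro_WT, thus do not set members apart. The 16 conventional DC genes summed to 1878 CPM in ILCpro_KO members and 1057 CPM in other ILCpro_KO cells, and to 1449 and 604 CPM in ILCpro_WT, with 3 and 9 of them at 0 in the members. The part of such cells in the class II result was not tested.

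The members were also split by the rule's own genes, and this split overlapped with that by class II RNA. In ILCpro_KO, class II RNA was in 15 of 52 members with Bhlhe41 or Asb2 and 16 of 27 with Cd7 alone. Differences between these groups are thus not separate from the class II split. ILCpro_KO members with Bhlhe41 or Asb2 (52 cells) had 1755 CPM of Runx3 and 280.0 of Spry2, and those with Cd7 alone (27 cells) had 788 and 32.1 CPM. The ratio of Lag3 was 1.28-fold (0.653 to 2.66), an interval that includes 1. Rora and Zbtb16 ran the other way, at 100.3 and 37.6 CPM with Bhlhe41 or Asb2 and 346 and 161 CPM with Cd7 alone. In ILCpro_WT members, Lag3 had 0 UMIs in the 12 cells with Bhlhe41 or Asb2 and in the 32 with Cd7 alone.

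Of the markers of other lymphocytes, Gzma, Gzmb and Prf1, the granule proteins of NK and cytotoxic T cells, had 0 UMIs in members of both libraries. The rule limits RNA of other NK and T cell genes, so low levels of such genes may follow in part from selection. Prf1 had 0 UMIs in other ILCpro_WT cells too, and no more than 3 UMIs (0.746 CPM) in other ILCpro_KO cells. Gzmb stood at 0.181 and 0.0585 times the members' floor in other ILCpro_KO and ILCpro_WT cells, and Gzma at 4.10 and 0.125 times. The zeros of Gzmb and Prf1, and that of Gzma in ILCpro_WT, thus do not set members apart. The 16 NK and cytotoxic genes summed to 3423 CPM in ILCpro_KO members and 1671 CPM in other ILCpro_KO cells, and to 3489 and 1586 CPM in ILCpro_WT, with 7 and 8 of them at 0 in the members. Most of these sums came from Tyrobp and from Fcer1g, an adaptor at 726 CPM in KO members and 355 CPM in other KO cells, and at 778 CPM in WT members and 424 CPM in other WT cells, which myeloid cells also use. The 14 T lineage genes summed to 245 CPM in ILCpro_KO members and 173 CPM in other ILCpro_KO cells, and to 235 and 268 CPM in ILCpro_WT, with Cd8a and Cd5 at 0 in members of both. Of 9 B lineage genes 4 were at 0 in ILCpro_KO members and 8 in ILCpro_WT members, and they summed to 115 and 40.3 CPM, against 92 and 48.8 CPM in the other cells. Doublets scored highest by Scrublet were 0 of 79 members and 4 of 637 other cells in ILCpro_KO, and 2 of 44 and 25 of 1785 in ILCpro_WT. One barcode was shared by ILCpro_KO with ILCpro_WT, and 4 by ILCpro_WT with ALP, none of them a member's.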

How the data were processed

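The counts deposited by the authors are whole UMI counts per gene and cell barcode in 3 libraries. Per the submitters' processing notes, Cell Ranger 2.0.1, STAR 2.5.1b, bcl2fastq 2.17 and the mm10 build were used, and whether counting used the strand is not given in the sources used here. Cells with at least 500 genes and at most 10% mitochondrial UMIs were kept. The members, the 31 gene lists and the tests were chosen with earlier results of these data known. UMIs were summed over cells, scaled to CPM and compared as log2 ratios with 10 CPM added; folds are plain CPM ratios. Intervals are exact at 95% (Poisson, conditional binomial, Clopper-Pearson) and cover counting error, since cells of 1 library are not replicates. A level of 0 is bounded by 3 UMIs over the group, and folds against this floor leave out the counting error of the other group. Doublets were scored with Scrublet (scanpy 1.11.5) and kept; an alternative removed 0.8% per 1000 barcodes. Named genes are the 12 highest and 12 lowest at 50 CPM or more, for members against other cells by the ratio nearer to 0 of both libraries and for ILCpro_KO against ILCpro_WT members by the ratio itself, without the rule's 9 genes and ribosomal, mitochondrial, sex-linked and unnamed genes. To these come up to 4 members of each list by size, the markers and genes that differ between the genotypes in opposite directions; other genes named were chosen after their values were seen. The calculations were tested on simulated data. Gene positions are from GENCODE vM21 (27645 of 27998 genes matched). Some genes that the rule or the lists would name are not reported here and are left out of list counts.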

Additional observations from a re-analysis of the deposited data

Results flagged for a closer look

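Ckb, the brain-type creatine kinase (GRCm38 chromosome 12, 111669361 to 111672338, minus strand), differed between the genotypes in opposite directions in members and in other cells, and it was the one gene that did so by 2-fold or more with at least 50 CPM in the higher group of both. It stood at 291 CPM in ILCpro_KO members (106 UMIs in 37 cells) and 80.5 CPM in ILCpro_WT members (12 UMIs in 8 cells), a log2 ratio of 1.74. In other cells it stood at 16.9 CPM in ILCpro_KO and 57.5 CPM in ILCpro_WT, a log2 ratio of -1.33. Members thus held 106 of 174 UMIs (60.9%, 53.2 to 68.2) of Ckb in ILCpro_KO and 12 of 354 UMIs (3.39%, 1.76 to 5.85) in ILCpro_WT. The difference between the ratios was not tested, since each group is 1 library. Over the alternatives the ratio among members ran from 0.78 to 2.26, below 2-fold with a minimum of 2 UMIs (0.87) and with Bhlhe41 or Asb2 asked of a member (0.78).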

How the results depend on the processing

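No paired analysis was possible because each group is 1 library. The ILCpro_KO share of 11.0% became 16.3% and 8.24% with a minimum of 2 and 4 UMIs, 5.29% thinned to 2000 UMIs, 17.3% without other-lineage cells, 8.66% with NK and T limits of 0, 14.4% without dividing cells and 7.26% with Bhlhe41 or Asb2 asked of a member, which was chosen after seeing the data. The ILCpro_WT share of 2.41% became 4.65% and 0.984% with 2 and 4 UMIs, 0.899% thinned and 0.656% with Bhlhe41 or Asb2 asked.

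Counts of genes at least 2-fold different moved most where cells were few. ILCpro_KO members against other cells gave 448, or 1072 thinned, 830 with a pseudocount of 1 CPM and 242 with a minimum of 50 CPM. ILCpro_WT members against other cells gave 651, or 274 and 1336 with 2 and 4 UMIs, 2575 thinned, 978 as a mean of per-cell CPM, 1270 with a pseudocount of 1 CPM, 243 at 50 CPM and 2545 with Bhlhe41 or Asb2 asked. ILCpro_KO against ILCpro_WT members gave 1016, or 534 and 1801 with 2 and 4 UMIs, 3495 thinned, 1622 with a pseudocount of 1 CPM, 369 at 50 CPM, 2968 with Bhlhe41 or Asb2 asked and 1698 without class II members, also chosen after seeing the data. Other ILCpro_KO against other ILCpro_WT cells gave 202, or 131 without other lineages, 327 with a pseudocount of 1 CPM and 133 at 50 CPM.

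Ratios and medians of 2-fold or more that took the other sign were Elane (0.58), Lyz2 (0.049), Prss34 (0.050) and Ap3s1 (0.20) in ILCpro_KO members without other-lineage cells, and in ILCpro_WT members with no minimum the medians of plasmacytoid DC genes (-0.0056) and conventional DC genes (-0.024), from 1.24 and 1.29; fewer other-lineage cells or more low genes enter by construction. Other values, under 2-fold, also changed sign. Between ILCpro_KO and ILCpro_WT members, with Bhlhe41 or Asb2 asked, the G2/M median was -0.46 and Maf was -0.30, and after thinning Il7r was 1.15, Rora 0.26 and Bcl11b 0. Gene ratios stayed within the counting interval of the main value in 337 of 408 recomputed values for ILCpro_KO members against other cells, 368 of 408 for ILCpro_WT members against other cells and 416 of 432 for ILCpro_KO against ILCpro_WT members. Depth limits the ILCpro_WT members most, where 1 UMI is 6.71 CPM.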

Other observations

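Among chemokine receptor and egress genes, Klf2, a factor that permits exit from lymphoid organs, had a log2 ratio of 1.67 in ILCpro_WT members against other ILCpro_WT cells (5 UMIs in 4 members, 33.5 CPM against 3.70 CPM), and stood at 2.75 CPM in ILCpro_KO members and 1.99 CPM in other ILCpro_KO cells.

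Of the Runx family, Runx2 was higher over all members of each library than in the other cells, as Runx3 was, and Runx1 was lower. Runx2 stood at 162 CPM in KO members and 58.5 CPM in other KO cells, and at 127 CPM in WT members and 33.0 CPM in other WT cells. Runx1, the factor of blood stem and progenitor cells, stood at 79.7 CPM in KO members and 116 CPM in other KO cells, and at 20.1 CPM in WT members and 66.8 CPM in other WT cells. Inside the ILCpro_KO members Runx2 and Runx3 ran in opposite directions. There Runx2 was at 268 CPM with class II RNA and 103 CPM without, and Runx3 at 727 and 1815 CPM. Notch2, a receptor of the Notch pathway, stood at 247 CPM in KO members and 93.5 CPM in other KO cells, and at 93.9 CPM in WT members and 83.8 CPM in other WT cells, and the log2 ratio of ILCpro_KO over ILCpro_WT members was 1.31. These genes were named after their values were seen, and no replicate or test stands behind the differences.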
